A study of Mus musculus with 10 samples.

Results

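Ovaries of Dmrt1 het Rar mutant mice were compared with control ovaries over all genes of the count table. The comparison rests on 7 of the 10 libraries of the series, 2 from mutants and 5 from controls, chosen by their labelled genotype. All were polyA RNA libraries of whole gonads from 6-week-old mice whose background mixed C57BL/6 with 129. The mutants were Sf1-Cre+ and Dmrt1 fl/+, and Rara, Rarb and Rarg were each f/f (both copies floxed). The controls were Sf1-Cre- and Dmrt1 +/+, with the same f/f state of all 3 receptor genes. All groups therefore carried the floxed receptor alleles, and the mutants differed from controls both by the Cre transgene and by 1 floxed Dmrt1 allele, whose parts in a result cannot be told apart in this comparison. The other 3 libraries, from Rar mutants with Sf1-Cre and without the floxed Dmrt1 allele, entered the fit as the third group. The study's title concerns the need for retinoic acid signalling in somatic cells of the ovary.

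Rara, Rarb and Rarg encode the nuclear receptors for retinoic acid, the active metabolite of vitamin A. These receptors bind DNA with a retinoid X receptor partner, at repeats of a short half-site, and switch on genes that include enzymes of retinoic acid breakdown and storage. In the fetal gonad retinoic acid is known for its link with the entry of germ cells into meiosis. Dmrt1 is a transcription factor that maintains male somatic identity in the testis. Sf1-Cre is a recombinase driven by the promoter of Nr5a1, a regulator of steroid-producing cells, and is active in somatic gonad cells and not in all cells of a whole ovary.

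Total counts per library ran from 21064856 to 25920131 over the 7 libraries, and 20570 of 24306 genes passed the filter on low counts. Both mutants and control 1 have title numbers under 7800, and controls 2 to 5 have higher ones, so control 1 is given apart throughout. What the title number stands for is not given in the sources used here. Along the first principal component of log2 CPM (46.4% of the variance, 7 libraries), the mutants lay at 59.18 and 52.32, control 1 at 42.01 and controls 2 to 5 between -58.05 and -21.38. Control 3 stood apart from the other 6 on the second component (22.9% of the variance), at -65.75. Values below are CPM, counts scaled to a common library size with TMM factors, with each SD over libraries. The labels do not say whether libraries came from separate animals, so p-values measure only the spread between these libraries.

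**Figure D1:**
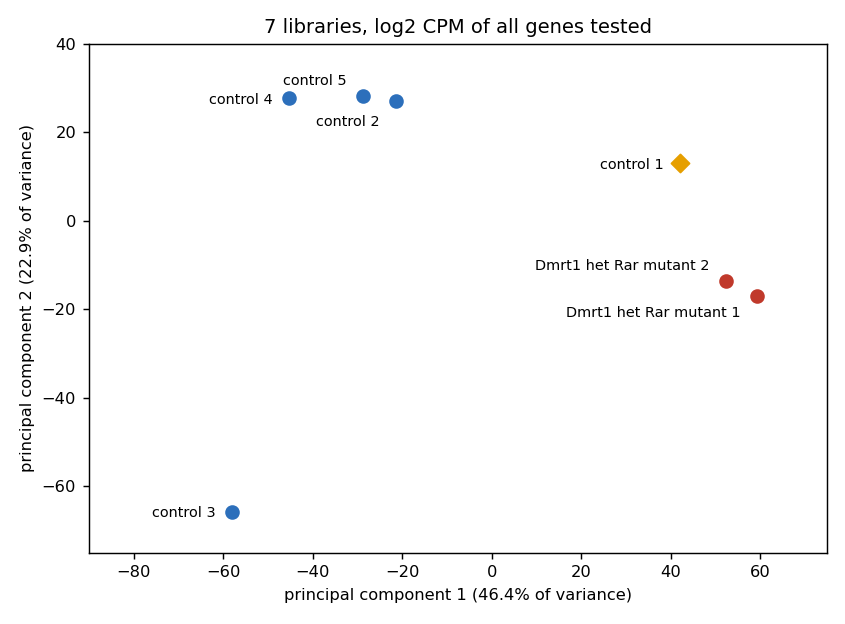
First 2 principal components of log2 CPM over all tested genes for the 2 Dmrt1 het Rar mutant libraries (red), control 1 (orange diamond) and controls 2 to 5 (blue). Control 1, at 42.01 on the first component, sits beside the mutants at 59.18 and 52.32, and control 3 is alone at -65.75 on the second component.

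The targeted genes were examined first. Rarg was at 20.4 and 22 CPM in the mutants, at 24.3 in control 1 and at 27.5, 32.7, 30.6 and 32.4 in controls 2 to 5. Both mutants lay below all controls, and the log2 fold change was -0.48 with an SE of 0.174 (edgeR adjusted p = 0.247). Rara was at 28.7 and 30.001 CPM in the mutants, inside the control range of 20.1 to 37.1. Rarb was at 2.10 and 2.63 CPM against 2.42 in control 1 and 2.64 to 4.58 in controls 2 to 5. None of these 3 receptor genes was called at an adjusted p under 0.05. Over the 5 tested genes of retinoic acid and retinoid X receptors the median log2 fold change was -0.17, and 0 were called. This median was 0.08 with title number (under 7800 or not) as a term in the fit. It was 0.10 in the libraries with title numbers under 7800 alone. With that term Rarg, Rara and Rarb had log2 fold changes of -0.21, 0.59 and -0.17. Dmrt1 had 0 and 5 counts in the mutants and 0 counts in every control, where a count of 0 allows up to 3 counts, so loss of 1 Dmrt1 allele was not detectable at this depth. Counts of a whole gene do not separate floxed exons from the rest of the transcript, nor cells with Cre from cells without it.

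The nuclear receptors for retinoic acid are known to act on the Cyp26a1 and Rarb promoters, which are shown because both genes report receptor activity. Cyp26a1 encodes an enzyme that breaks down retinoic acid, and Rarb encodes a receptor that is itself a target. The sequences are RefSeq promoter windows on GRCm38.p6, from 250 bases before to 50 bases after the gene's start, printed 5′ to 3′ on the gene's strand. Cyp26a1 is the window chr19:37697558-37697857 on the plus strand and Rarb is chr14:16575427-16575726 on the minus strand. Capitals mark a pair of half-sites with 5 bases between them.
Cyp26a1: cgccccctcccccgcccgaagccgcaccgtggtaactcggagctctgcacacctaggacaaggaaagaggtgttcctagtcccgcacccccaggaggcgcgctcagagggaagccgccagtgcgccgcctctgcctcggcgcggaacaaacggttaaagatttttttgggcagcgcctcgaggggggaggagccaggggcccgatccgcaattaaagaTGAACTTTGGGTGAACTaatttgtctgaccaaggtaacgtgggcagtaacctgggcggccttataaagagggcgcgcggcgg
Rarb: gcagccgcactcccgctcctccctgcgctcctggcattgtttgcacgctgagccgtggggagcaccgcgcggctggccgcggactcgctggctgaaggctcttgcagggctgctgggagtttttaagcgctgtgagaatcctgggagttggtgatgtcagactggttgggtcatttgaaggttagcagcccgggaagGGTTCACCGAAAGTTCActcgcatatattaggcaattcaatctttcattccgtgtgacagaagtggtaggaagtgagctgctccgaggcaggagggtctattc
On the opposite strand the Cyp26a1 repeat reads AGTTCA, any 5 bases and AGTTCA again, a pattern that 8 of 32851 RefSeq promoter windows of the same length hold on either strand (0.0244%). The Rarb repeat reads GGTTCA, any 5 bases and AGTTCA, which 2 of the 32851 windows hold (0.00609%). Single half-sites are common, with AGGTCA in 16.3% and AGTTCA in 14.0% of windows, and overlap with the repeats was allowed. A match describes the letters and is not evidence of binding.

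Among 8 tested retinoic acid responsive genes, 0 were called, and 4 had an unadjusted p under 0.05, all with negative fold changes. Over all 20570 genes tested, 4 (0.0194%) were called, and 1905 (9.26%) had an unadjusted p under 0.05 with a negative fold change. The list's median log2 fold change was -0.65, beside -0.02 over all genes. Cyp26a1 had 1 and 2 counts in the mutants, 6 in control 1 and 65 in controls 2 to 5 together. Its pooled level was 9.06 times higher in controls, with an exact 95% counting interval from 2.98 to 44.96 that covers counting error only. Hsd17b2, an oestradiol-inactivating dehydrogenase, was at 1.18 and 1.36 CPM in the mutants, at 6.22 in control 1 and at 9.70, 10.9, 11.4 and 9.69 in controls 2 to 5. The groups did not overlap, and its log2 fold change was -2.91 with an SE of 0.516 (edgeR adjusted p = 0.156). Hsd17b2 was called when control 1 was left out (edgeR adjusted p = 0.0382). With control 1 kept, it was called in the 7 libraries of mutants and controls alone (edgeR adjusted p = 0.0312) and by DESeq2 (DESeq2 adjusted p = 8.53e-07). It was not called with title number as a term (edgeR adjusted p = 0.523). In the libraries with title numbers under 7800 alone its log2 fold change was -2.29.

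Lrat, which esterifies retinol for storage, was at 5.97 and 5.79 CPM in the mutants, at 44.1 in control 1 and at 21.5, 29.9, 11.6 and 16.2 in controls 2 to 5. Control 1 was the highest library, on the far side of the other controls from the mutants, and the log2 fold change was -2.06 with an SE of 0.557 (edgeR adjusted p = 0.243). Rarres2, which encodes the adipokine chemerin, was at 44.9 and 40.5 CPM against 52.2 in control 1 and 71.1 to 104 in controls 2 to 5. Its log2 fold change of -0.91 (SE 0.241) was -0.29 among libraries with title numbers under 7800. Cyp26b1 and Dhrs3, which clear retinoic acid and its precursor, had log2 fold changes of 0.15 (SE 0.357) and 0.02 (SE 0.292), with mutants inside or at the edge of the control range. The median of the list was -0.34 with title number as a term and -0.03 in the libraries with low title numbers alone.

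Genes of retinoic acid synthesis and retinoid transport gave 0 called of 16 tested, with 1 positive and 3 negative fold changes at an unadjusted p under 0.05, beside 8.06% and 9.26% of all genes. The median log2 fold change of these 16 genes was -0.30. Aldh1a2, a retinaldehyde dehydrogenase that makes retinoic acid, was at 51.5 and 67.8 CPM against 64.8 in control 1 and 84.3 to 113 in controls 2 to 5, so mutant 2 lay above control 1. Aldh1a1, of the same enzyme class, had a log2 fold change of -0.22 (SE 0.446). Dhrs9, a retinol dehydrogenase, was at 1.18 and 0.395 CPM against 0.409 in control 1 and 0.0795 to 0.236 in controls 2 to 5, and mutant 2 lay inside the control range. Adh7, an alcohol dehydrogenase able to oxidise retinol, was at 1.85 and 3.20 CPM, inside the control range of 0.733 to 5.72, while the 3 Rar mutants were at 27.6, 15.7 and 17.9 CPM. The difference of Adh7 between the mutant groups was -3.01 in log2 (SE 0.708, edgeR adjusted p = 0.195).

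**Figure D2:**
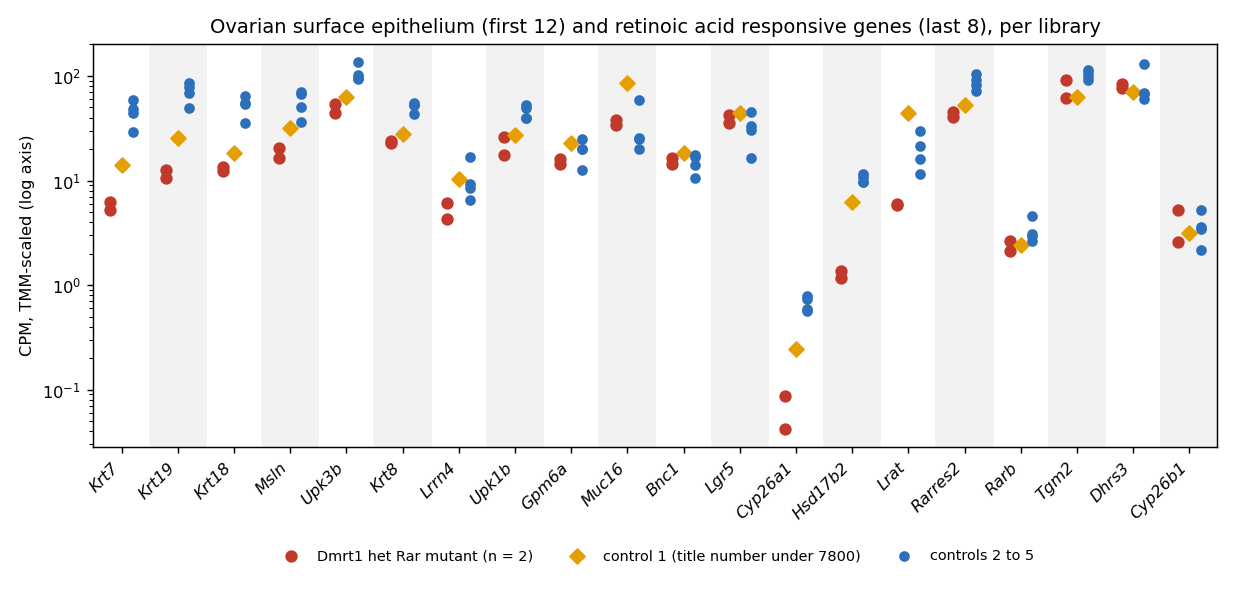
CPM (log axis) of every tested member of the lists of ovarian surface epithelium (first 12 genes) and of retinoic acid responsive genes (last 8), for the mutants (red), control 1 (orange diamond) and controls 2 to 5 (blue). For Krt7, Krt19 and Hsd17b2 control 1 sits between the mutants and controls 2 to 5, and for Lrat it is above all other libraries.

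Over all genes, 4 of 20570 were called (0.0194%), 3 higher (0.0146%) and 1 lower (0.00486%) in the mutants. Nr6a1, Tdh and Neb rose and Gpc3 fell. An unadjusted p under 0.05 was reached by 3563 genes (17.3%), 1658 with positive (8.06%) and 1905 with negative fold changes (9.26%). Both mutants lay above all 5 controls for 2902 genes (14.1%) and below all 5 for 2939 (14.3%). The absolute log2 fold change was at least 1 for 1869 genes (9.09%). DESeq2 called 346 genes (1.68%), 129 higher (0.627%) and 217 lower (1.05%), among them all 4 called by edgeR.

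Nr6a1 encodes germ cell nuclear factor, an orphan nuclear receptor that represses pluripotency genes. It lies on chromosome 2 (GRCm38, 38723370 to 38927688, minus strand), next to Nr5a1. Nr6a1 was at 60.1 and 56.3 CPM in the mutants, 16.5 in control 1 and 14.3, 12.2, 10.7 and 11.5 in controls 2 to 5. The mean was 58.2 ± 2.73 (SD, n = 2) against 13.0 ± 2.36 (SD, n = 5), a 4.46-fold difference with a log2 fold change of 2.16 (SE 0.182, edgeR adjusted p = 0.00249). The groups did not overlap, and control 1 was the highest control. Nr6a1 was the 1 gene still called with title number as a term, at a log2 fold change of 1.85 (adjusted p = 0.0248). The Rar mutants were at 47.7, 34.6 and 40.8 CPM, and the difference between the mutant groups was 0.50 in log2 (SE 0.209, edgeR adjusted p = 0.270).

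Among 8 tested genes at the Nr5a1 locus, 1 was called (Nr6a1) and 7 had positive fold changes, beside 9869 of all 20570 genes. Their median log2 fold change was 0.73 beside -0.02 over all genes. Nr5a1 itself was at 402 and 359.8 CPM in the mutants, 199.95 in control 1 and 186, 316, 166 and 166 in controls 2 to 5. Both mutants lay above all controls, and the log2 fold change was 0.88 with an SE of 0.243 (edgeR adjusted p = 0.243). Adgrd2-ps, a pseudogene of an adhesion receptor, was at 2.65 and 2.94 CPM against 0.655 in control 1 and 0.433 to 1.01 in the others (log2 fold change 2.14, SE 0.357, adjusted p = 0.149). Nek6, a mitotic kinase gene, had a log2 fold change of 0.54 (SE 0.192), and Psmb7, a proteasome subunit gene, had -0.35 (SE 0.15). Whether the counting used strand is not given in the sources used here, so reads of Nr6a1 and Nr5a1 and of their antisense partners cannot be told apart. The part of the Nr5a1-driven transgene in these values was not tested. Within 2000 kb of Nr5a1, Nr6a1 was the 1 gene called among 37 tested. Of these 37, 6 had positive and 6 negative fold changes at an unadjusted p under 0.05, beside 8.06% and 9.26% of all genes. The median log2 fold change of the 37 was 0.09. Within the same distance 0 were called among 22 near Dmrt1, 97 near Rara, 11 near Rarb and 82 near Rarg.

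Tdh encodes mitochondrial threonine dehydrogenase, which starts the breakdown of threonine to glycine. Its level on chromosome 14 (63492347 to 63509092, minus strand) was 5.21 and 6.84 CPM in the mutants, 0.532 in control 1 and 1.07, 0.550, 0.708 and 0.764 in controls 2 to 5. The mean was 6.03 ± 1.15 (SD, n = 2) against 0.725 ± 0.219 (SD, n = 5), or 8.23-fold, with a log2 fold change of 3.04 (SE 0.269, edgeR adjusted p = 0.00249). Control 1 was the lowest control, on the far side from the mutants. Tdh was at 13.3, 10.01 and 11.7 CPM in the Rar mutants, and the difference between the mutant groups was -0.95 (SE 0.302, edgeR adjusted p = 0.216). With title number as a term the log2 fold change was 3.07 and the adjusted p 0.0722. Tdh was the 1 called gene among 12 of threonine and glycine metabolism, whose median log2 fold change was -0.04. Gcat, the next enzyme of the pathway, had 7.15 and 4.78 CPM against 5.57 in control 1 and 9.41 to 13.3 in controls 2 to 5.

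Neb encodes nebulin, a giant protein of the thin filament of skeletal muscle. Its level on chromosome 2 (52136647 to 52378474, minus strand) was 53.2 and 46.8 CPM in the mutants, 17.0 in control 1 and 11.8, 14.4, 8.70 and 15.3 in controls 2 to 5. The mean was 49.96 ± 4.52 (SD, n = 2) against 13.4 ± 3.25 (SD, n = 5), or 3.71-fold, with a log2 fold change of 1.89 (SE 0.226, edgeR adjusted p = 0.0237). The Rar mutants were at 14.9, 11.2 and 13.8 CPM, inside the control range. The difference between the mutant groups was 1.91 in log2 (SE 0.260), which did not pass (edgeR adjusted p = 0.111). Neb was the 1 called gene among 6 tested skeletal muscle genes, whose median log2 fold change was -0.14. Ttn, which encodes the giant sarcomere protein titin, was at 3.62 and 3.20 CPM against 3.44 in control 1 and 1.02 to 1.81 in controls 2 to 5, so control 1 lay between the mutants. Actn3, a fast-fibre actinin gene, was at 3.62 and 3.51 against 3.50 to 3.90 in all controls. The muscle actin gene Acta1 and the creatine kinase gene Ckm had at most 8 counts in any of the 7 libraries and were not tested. With title number as a term, Neb had a log2 fold change of 1.62 and an adjusted p of 0.348.

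Gpc3 encodes glypican 3, a cell surface proteoglycan that binds growth factors and hedgehog ligands. Its level on the X chromosome (52272426 to 52613950, minus strand) was 23.3 and 20.4 CPM in the mutants, 49.1 in control 1 and 54.1, 57.8, 66.1 and 64.2 in controls 2 to 5. The mean was 21.8 ± 1.99 (SD, n = 2) against 58.3 ± 7.03 (SD, n = 5), or 2.67 times higher in controls, with a log2 fold change of -1.42 (SE 0.168, edgeR adjusted p = 0.0237). Control 1 was the lowest control and still far above both mutants. The Rar mutants lay between, at 31.4, 28.2 and 33.9 CPM, and the log2 difference between the mutant groups was -0.51 (SE 0.173, edgeR adjusted p = 0.231). With title number as a term the log2 fold change was -1.29 and the adjusted p 0.136.

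The number of calls depended on control 1, and the 4 genes above stayed called without it. Both mutants then have low title numbers and all remaining controls high ones. That fit therefore cannot tell genotype from title number. Without control 1, 364 genes were called (1.78%), 226 higher (1.1%) and 138 lower (0.674%). With only the libraries of title number under 7800 the count was 79 (0.387%), with 25 higher (0.122%) and 54 lower (0.265%). In that second fit control 1 and Rar mutant 1 stand alone and are assumed to vary like the mutants. The 2 sets shared 8 genes, 2.20% of the first and 10.1% of the second: the 4 above and Sectm1b, Hsd17b2, Sgpp2 and Reln. Sgpp2, a sphingosine-1-phosphate phosphatase gene, had a log2 fold change of 1.66 (SE 0.296, edgeR adjusted p = 0.156). Reln encodes the extracellular protein reelin, and was at 67.2 CPM in mutant 2, 35.8 in control 1 and 13.6 to 23.9 in controls 2 to 5. With title number as a term 1 gene was called (0.00486%), and in that fit the term itself passed for 2414 genes.

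**Figure D3:**
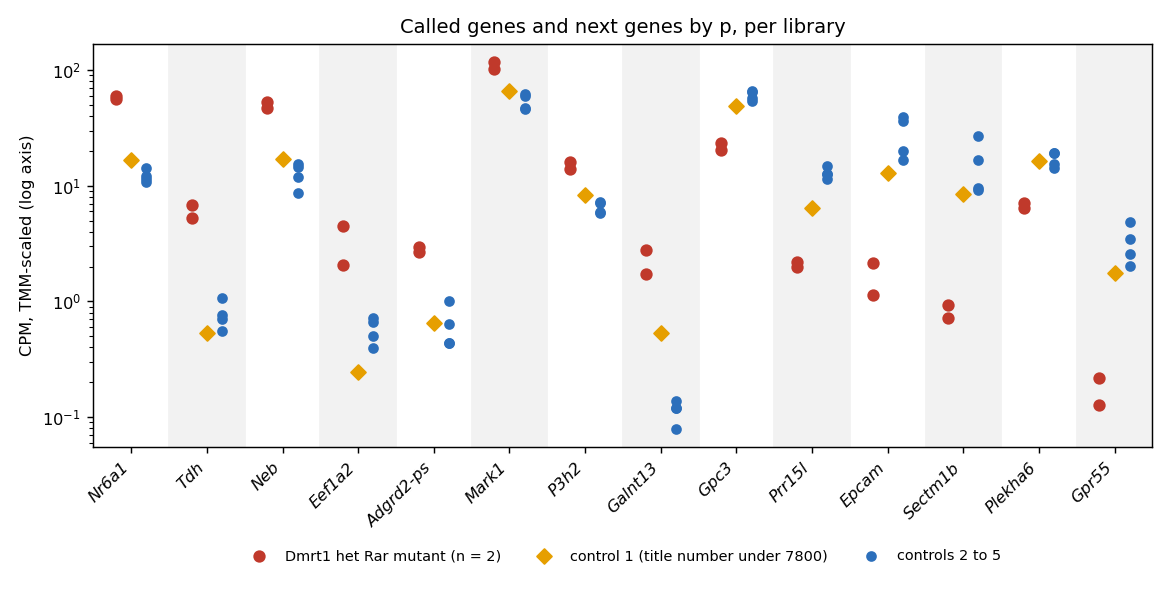
CPM per library (log axis) of the 4 called genes and of the 5 uncalled genes of smallest p in each direction, for the mutants (red), control 1 (orange diamond) and controls 2 to 5 (blue). In all 14 genes, which were picked for small p in this comparison, both mutants lie beyond every control, beside 28.4% of all genes. Of the 4 called genes, Nr6a1, Neb and Gpc3 have control 1 as the control nearest to the mutants.

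**Figure D4:**
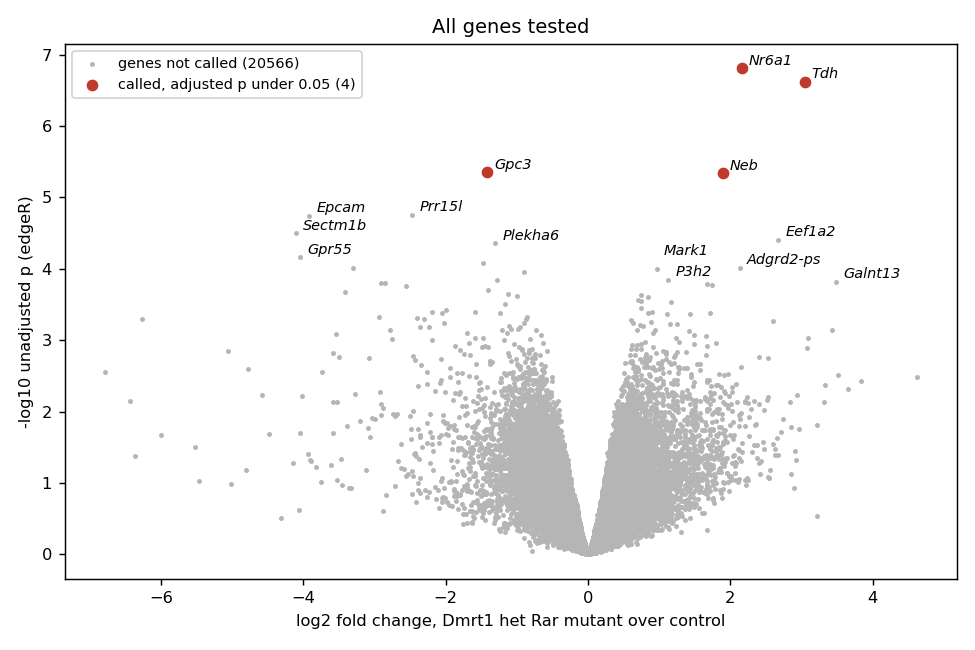
Log2 fold change of Dmrt1 het Rar mutant over control against -log10 of the unadjusted edgeR p for the 20570 genes tested. The 4 called genes (red) are Nr6a1, Tdh and Neb on the higher side and Gpc3 on the lower side.

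Next in order of p on the lower side were Prr15l, Epcam, Sectm1b, Plekha6 and Gpr55, of which none passed. Epcam, an epithelial adhesion molecule, was at 1.14 and 2.15 CPM in the mutants, 12.8 in control 1 and 39.0, 16.5, 36.0 and 20.1 in controls 2 to 5. The groups did not overlap, and the log2 fold change was -3.92 with an SE of 0.542 (edgeR adjusted p = 0.0625). Prr15l, a proline-rich protein gene, was at 1.98 and 2.19 CPM against 6.39 in control 1 and 11.5 to 14.7 in the others (adjusted p = 0.0625). Sectm1b, which encodes a secreted and transmembrane protein, was at 0.715 and 0.921 CPM against 8.48 in control 1 and 9.25 to 26.8 in the others (adjusted p = 0.0939). Plekha6 and Gpr55, the latter a lysophospholipid and cannabinoid receptor gene, had log2 fold changes of -1.31 (SE 0.199) and -4.04 (SE 0.649). For Plekha6 control 1 was at 16.3 CPM, inside the 14.2 to 19.1 of controls 2 to 5 and above the 6.48 and 7.06 of the mutants.

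On the higher side the next genes were Eef1a2, Adgrd2-ps, Mark1, P3h2 and Galnt13. Eef1a2, the elongation factor isoform of neurons and muscle, was at 2.06 and 4.47 CPM against 0.246 in control 1 and 0.398 to 0.724 in the others (log2 fold change 2.67, SE 0.402, edgeR adjusted p = 0.100). Mark1, a microtubule affinity-regulating kinase gene, was at 117 and 102 CPM against 65.5 in control 1 and 46.2 to 62.2 in the others (adjusted p = 0.149). P3h2, a collagen prolyl hydroxylase gene, was at 15.9 and 14.1 CPM against 8.35 in control 1 and 5.77 to 7.28 in the others, and the Rar mutants were at 6.14 to 8.15. Galnt13, a glycosyltransferase gene, was at 1.72 and 2.81 CPM against 0.532 in control 1 and 0.0787 to 0.137 in the others. Among 15 neuronal and neuroendocrine genes 0 were called, and 4 had positive fold changes at an unadjusted p under 0.05, beside 8.06% of all genes: Eef1a2, Scn3b, Sez6l and Ank3. Scn3b, a sodium channel subunit gene, was at 6.69 and 6.45 CPM against 0.954 to 2.61 in controls.

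Markers of the ovarian surface epithelium, the cell layer that covers the ovary, gave 0 called of 12 tested. Both mutants lay below all 5 controls for 8 of them, beside 14.3% of all genes, and the same number had a negative fold change at an unadjusted p under 0.05, beside 9.26%. The median log2 fold change was -0.97. In a bulk library fewer cells of a type and less RNA per cell cannot be told apart. Krt7, a simple-epithelium keratin, was at 5.17 and 6.18 CPM in the mutants, 14.2 in control 1 and 43.9, 48.7, 59.3 and 28.9 in controls 2 to 5 (log2 fold change -2.78, SE 0.596, edgeR adjusted p = 0.209). Krt19 was at 10.6 and 12.6 CPM against 25.6 in control 1 and 48.9 to 85.0 in the others. Control 1 was the lowest control for both, between the mutants and the rest. Muc16, a surface mucin gene, was at 34 and 37.5 CPM, inside the control range of 20.1 to 86.2, and Lgr5 and Bnc1 were inside it too. The summed level of the 12 genes was 239 and 268 CPM in the mutants, 389 in control 1 and 451 to 643 in controls 2 to 5. The list's median was -0.79 with title number as a term and -0.53 in the libraries with low title numbers. Krt7, Krt8 and Krt18 lie within 2000 kb of Rarg and Krt19 within 2000 kb of Rara. Near Rarg, 11 of 82 tested genes had negative and 3 positive fold changes at an unadjusted p under 0.05. Near Rara these were 13 and 2 of 97, beside 9.26% and 8.06% of all genes. The part of these loci in the keratin values was not tested.

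Genes of epithelial junctions and of matriptase, a membrane protease of epithelia, gave 0 called of 23 tested, with 12 negative and 1 positive fold change at an unadjusted p under 0.05, beside 9.26% and 8.06% of all genes. The median log2 fold change was -0.94, beside -0.39 with title number as a term and -0.12 in the libraries with low title numbers. St14, the matriptase gene, was at 0.799 and 1.01 CPM in the mutants, 2.54 in control 1 and 8.59, 5.63, 5.67 and 4.18 in controls 2 to 5. The log2 fold change of St14 was -2.55 (SE 0.457, edgeR adjusted p = 0.156). Ocln, the tight junction protein occludin, was at 1.56 and 1.18 CPM against 3.23 in control 1 and 2.84 to 4.85 in the others, so here control 1 lay among the controls. Dsp, which encodes the desmosome protein desmoplakin, went the other way at 165 and 117 CPM against 87.8 in control 1 and 44.6 to 63.0 in the others (log2 fold change 1.24, SE 0.260, adjusted p = 0.209).

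Granulosa cell genes, expressed by the follicle cells around the oocyte, gave 0 called of 16 tested, with 6 positive and 0 negative fold changes at an unadjusted p under 0.05, beside 8.06% of all genes on the positive side. The median log2 fold change was 0.26, and 0.65 in the libraries with low title numbers. Slc18a2, a vesicular monoamine transporter gene, was at 375 and 285 CPM in the mutants, 197 in control 1 and 131, 173, 135 and 199 in controls 2 to 5 (log2 fold change 0.98, SE 0.277, edgeR adjusted p = 0.243). Npr2, the natriuretic peptide receptor that helps hold oocytes in meiotic arrest, was at 165 and 144 CPM against 99.6 in control 1 and 74.5 to 124 in the others. For both genes the mutants lay above all controls and control 1 lay within the range of controls 2 to 5. Fshr, the receptor for follicle-stimulating hormone, was at 69.2 and 78.4 CPM, and control 3 at 74.1 lay among the mutants. Cyp19a1, the aromatase that makes oestrogen, was at 178 and 182 CPM against 50.2, 15.5, 209, 38.6 and 21.5 in controls 1 to 5, so control 3 was above both mutants.

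Somatic fate genes of the ovary gave 0 called of 15 tested, with a median log2 fold change of -0.03. Foxl2, a transcription factor that maintains granulosa cells, was at 50.8 and 55.0 CPM, inside the control range of 46.4 to 62.7. Esr2, the main oestrogen receptor of granulosa cells, was at 231 and 175 CPM, above the 94.7 to 146 of all controls (log2 fold change 0.82, SE 0.200, edgeR adjusted p = 0.243). Wnt4, a ligand of ovarian development, was at 20.2 and 48.1 CPM against 56.3 in control 1 and 90.1 to 125 in the others. Testis fate genes gave 0 called of 14 tested, and the median was 0.0019. Sox9, the Sertoli cell factor, was at 0.715 and 1.49 CPM against 1.60 in control 1 and 2.05 to 2.94 in the others, below all controls. Amh, made by Sertoli and granulosa cells, was at 161 and 116 CPM, inside the control range of 69.3 to 234.

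Steroidogenesis (17 tested), corpus luteum (12), theca cell and hedgehog (12) and cholesterol synthesis and uptake (21) each gave 0 called. Their median log2 fold changes were -0.28, -0.25, -0.23 and -0.30. Cited4, a corpus luteum marker, was at 12.1 and 14.5 CPM, and control 3 at 13.7 lay between the mutants. Gli1, a target of hedgehog signalling, was at 6.01 and 9.69 CPM against 11.0 in control 1 and 12.4 to 16.4 in the others. Mvk, the mevalonate kinase gene, was at 15.3 and 16.2 CPM, and control 1 at 15.9 lay between them, below the 24.1 to 30.3 of controls 2 to 5. Oocyte genes gave 0 called of 23 tested, and 21 had negative fold changes, beside 10701 of all 20570 genes. Of these 23 oocyte genes, 0 reached an unadjusted p under 0.05 in either direction, beside 17.3% of all genes. The median of -0.41 over the oocyte genes turned to 0.19 with title number as a term. Dppa3, a maternal effect gene, was at 19.6 and 15.5 CPM against 20.5 in control 1 and 26.4 to 39.8 in the others, and its fold change turned positive (0.17) with that term.

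Genes of ovulation and cumulus expansion gave 0 called of 15 tested, with a median log2 fold change of 0.32. Of these 15, 0 had an unadjusted p under 0.05 in either direction, beside 17.3% of all genes. The list's median was 1.35 with title number as a term and 0.012 in the libraries with low title numbers alone. Cebpb, a transcription factor of the ovulatory response, was at 13.7 and 15.5 CPM against 15.2 in control 1 and 16.2 to 33.6 in the others, so control 1 lay between the mutants. Collagen genes gave 0 called of 14 tested with a median of -0.080. Col1a2, a chain of fibrillar type I collagen, was at 244 and 359 CPM against 401 in control 1 and 389 to 489.8 in the others, below all controls. Col6a3, a chain of type VI collagen, was at 128 and 110.3 CPM, and control 1 at 124 lay between the mutants, above the 64.2 to 84.8 of controls 2 to 5.

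Markers of other tissues that a whole ovary can carry differed among the libraries. Adipocyte genes gave 0 called of 8 tested with a median log2 fold change of -2.50, and their summed level was 140 and 226 CPM in the mutants, 887 in control 1 and 89.5 to 499 in controls 2 to 5. Car3, a carbonic anhydrase of fat cells, was at 0.967 and 0.658 CPM against 18.0 in control 1 and 1.63 to 10.7 in the others. Oviduct and ciliated epithelium genes gave 0 called of 10 tested with a median of 0.012, and 5 had positive and 5 negative fold changes. Both mutants lay above all controls for 2 of them and below all controls for 2, beside 14.1% and 14.3% of all genes. At an unadjusted p under 0.05, 0 had positive and 3 had negative fold changes, beside 8.06% and 9.26% of all genes. The 2 above were Dnah5, an axonemal dynein gene, and Ccdc39, also of motile cilia. Dnah5 was at 0.421 and 1.45 CPM against 0.409 in control 1 and at most 0.358 in the others. For Dnah5 mutant 1 barely exceeded control 1. Ccdc39 was at 7.74 and 7.63 CPM against 6.43 in control 1 and 3.94 to 6.40 in the others. Wfdc2, a secreted protein gene of that epithelium, was at 0.210 and 0.0439 CPM against 0.164 in control 1 and 1.03 to 1.37 in the others. Lymphocyte and mast cell genes gave 0 called of 10 with a median of -0.069. Endothelial genes gave 0 called of 11 with a median of -0.19. Their tight junction gene Cldn5 was at 16.5 and 22.1 CPM against 34.3 in control 1 and 32.8 to 40.5 in the others. Macrophage (11 tested), smooth muscle (10) and proliferation genes (15) gave 0 called, with medians of -0.03, -0.46 and -0.02. Erythroid genes gave 0 called of 5 and a median of -0.41, which was 0.91 with title number as a term, and the near-identical globin genes Hba-a1 and Hba-a2 can share reads. The part of these tissues in the results above was not tested.

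**Figure D5:**
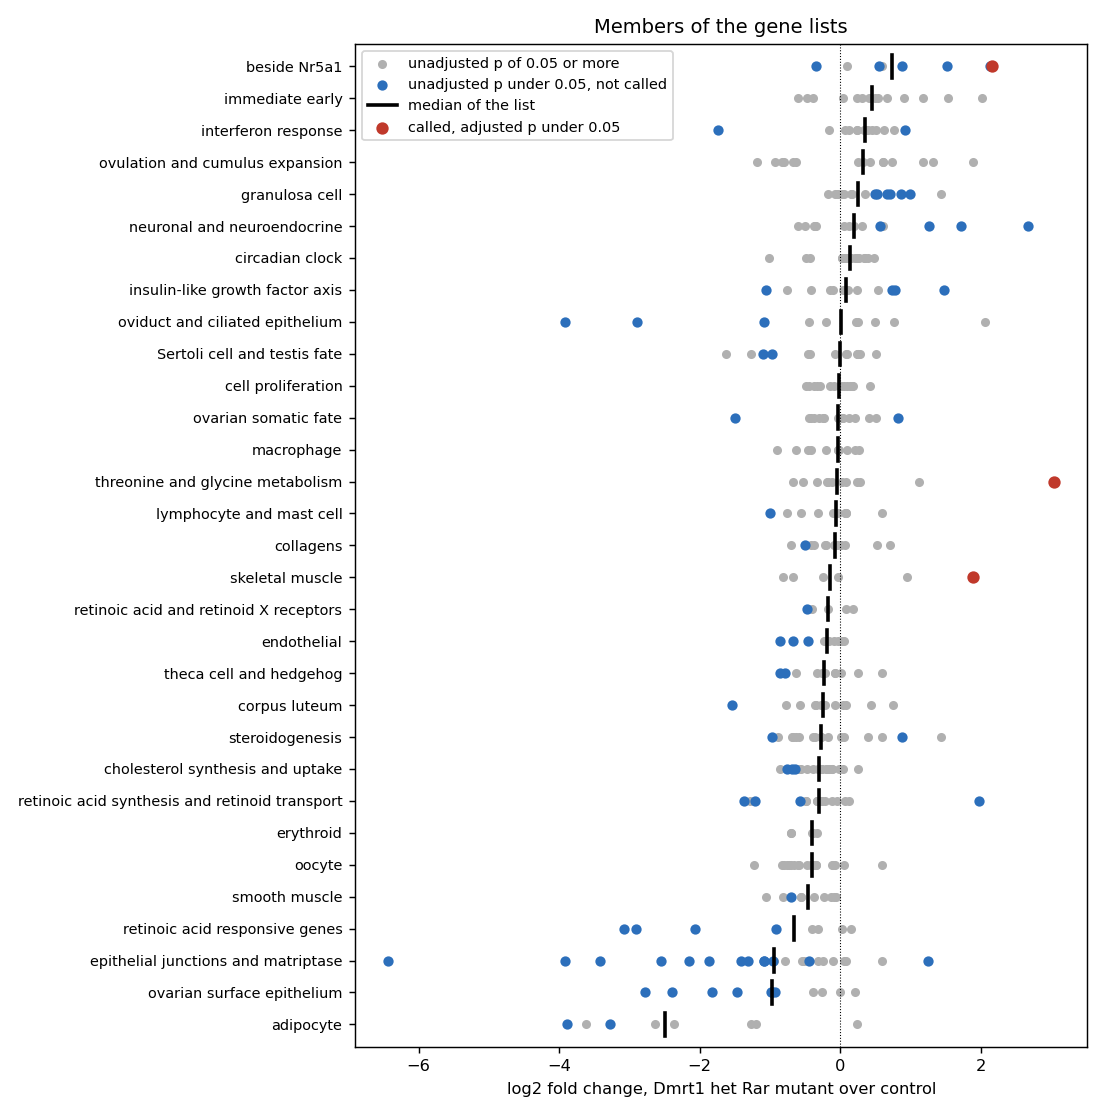
Log2 fold change of Dmrt1 het Rar mutant over control for each tested member of the 31 gene lists, with red for called genes, blue for an unadjusted p under 0.05 and a bar at each list's median. The surface epithelium (-0.97), junction (-0.94) and adipocyte (-2.50) lists have the lowest medians and the genes beside Nr5a1 (0.73) the highest.

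The Dmrt1 het Rar mutants were then set against the Rar mutants, which share the Cre and the floxed receptor alleles. Of 20570 genes edgeR called 0 (0%) and DESeq2 682 (3.32%), and 3467 (16.9%) had an unadjusted edgeR p under 0.05. Hdc, the histidine decarboxylase that makes histamine, was at 12.9 and 12.8 CPM in the Dmrt1 het Rar mutants and at 45.7, 103 and 128 in the Rar mutants (log2 difference -2.85, SE 0.427, edgeR adjusted p = 0.111). The controls were at 19.6, 27.7, 19.0, 27 and 35.1 CPM, between the mutant groups. Ank3, which encodes ankyrin G, a membrane scaffold, was at 115 and 87.6 CPM against 42.3, 29.4 and 37.3 in the Rar mutants (log2 difference 1.48, SE 0.200, adjusted p = 0.111). Esr2 was at 68.0, 88.8 and 87.1 CPM in the Rar mutants, below both Dmrt1 het Rar mutants (log2 difference 1.32, SE 0.223, adjusted p = 0.115). Without Rar mutant 1, the 1 Rar mutant with a title number under 7800, 335 genes (1.64%) were called in this comparison. Both Dmrt1 het Rar mutants then have title numbers under 7800 and the remaining Rar mutants higher ones. Genotype and title number therefore cannot be told apart in these calls. With title number as a term in the fit of all 10 libraries, edgeR called 0.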

How the data were processed

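PolyA RNA of whole ovaries was sequenced with a stranded mRNA kit, per the labels' protocols. The authors deposited a table of raw counts per Ensembl gene and library; the submitters' processing notes name STAR 2.4.2a and the build GRCm38, besides SAMtools 1.0, Trimmomatic 0.32 and DESeq2 1.12.3, and the counting tool and annotation are not given in the sources used here. The FPKM table and the authors' table of differential expression were not used here. Samples were grouped by the genotype in the labels.

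The two-sided quasi-likelihood test of edgeR 4.0.16 in R 4.3.3 was run on the counts (TMM, filterByExpr, robust dispersion) over all 10 libraries in 3 groups, and the contrast was Dmrt1 het Rar mutant minus control. Benjamini-Hochberg adjustment ran over all 20570 genes tested, and a gene was called at an adjusted p under 0.05. The SE of a log2 fold change is its size divided by the square root of F and is approximate. Plots and components used log2 CPM with a prior count of 2. Depth was 21064856 to 25920131 counts per library, so 3 counts correspond to 0.118 to 0.137 CPM over the 7 libraries, for counting error only. Positions came from GENCODE M21 (24090 of 24306 identifiers matched) and promoters from RefSeq; 438 identifiers had no symbol. The test was checked on simulated data. These held no effect of title number, with dispersions from the fit with that term. The check therefore does not cover such an effect.

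The comparison, the 31 gene lists and the rule for named genes were chosen with earlier results of these data known. The rule named Rara, Rarb, Rarg, Dmrt1 and Nr5a1, all called genes with the 5 uncalled genes of smallest p in each direction (as fewer than 10 were called), and from each list its called members or up to 2 members of smallest p. Other genes named in the text were chosen after their values were seen. A few genes are not reported here. Alternatives were DESeq2 1.42.0, upper-quartile scaling, no filter or a mean CPM of at least 1, non-robust dispersion, the 7 libraries alone, title number under 7800 as a term, the replicate number as a block, and each library left out. Fits of the libraries with title numbers under 7800, of DESeq2 with the title-number term and of mutants against controls 2 to 5 alone were added after the data were seen. No pair of libraries among the mutants or among the controls agreed within counting noise. Pairs of Rar mutants were not checked.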

Additional observations from a re-analysis of the deposited data

Results flagged for a closer look

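Of 65 named genes checked over the 5 controls, 10 had 1 control far from the other controls. Chance gives about 1 in 20 such gaps, and these genes share the same libraries, so they are not independent. Control 1, with its low title number, was the separate one for Galnt13 (0.532 CPM), Wfdc2 (0.164 CPM), Igf1r (207 CPM) and Egr3 (1.72 CPM). In each of these 4 control 1 was the control nearest to the mutants or among them. Control 3 was separate for Nr5a1 (316 CPM), the endothelial gene Cldn5 (40.5 CPM), the myeloid integrin gene Itgam (3.89 CPM) and the globin genes Hba-a1 (604 CPM) and Hba-a2 (574 CPM). Control 4 was separate for the endothelial gene Emcn (43.8 CPM).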

How the results depend on the processing

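With 2 mutant libraries, calls were few and moved with single libraries. The 4 calls had the same direction under every alternative run. Against 4 genes called, DESeq2 called 346, the title-number term left 1, the libraries with title numbers under 7800 gave 79, DESeq2 with the title-number term gave 65, and mutants against controls 2 to 5 alone gave 3651. Leaving out 1 library gave 0 (without mutant 2) to 364 genes (without control 1), with 1 without mutant 1 (Tdh), and 2 without control 2, 3, 5 or Rar mutant 3 (Nr6a1 and Tdh each time). The 7 libraries alone also gave 4, of which Nr6a1 and Tdh were among the original calls. The deviations of same-numbered mutants and controls from their group means correlated at 0.0782 and 0.0677. With 2 mutants these deviations mirror each other, and differently numbered pairs were not compared. The correlations therefore cannot decide whether replicate numbers pair the libraries. Mutants and Rar mutants gave -0.087 and -0.0563, and Rar mutants and controls 0.435, 0.0161 and 0.243 for numbers 1 to 3. With the replicate block 0 genes were called (1706 at an unadjusted p under 0.05).

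Between the mutant groups 0 genes were called, DESeq2 called 682, and DESeq2 with the title-number term 172. The low title numbers alone gave 1088, and leaving out 1 library gave 0 to 335, the highest without Rar mutant 1, and 1 without control 1. Over the named genes and alternatives, 1255 results kept direction and side of the threshold, 97 passed newly, 25 no longer passed and 23 turned sign. With the title-number term the log2 fold change, in edgeR and in DESeq2, was -0.027 and -0.026 for Col6a3, 0.17 in both for Dppa3, 0.076 and 0.079 for Ooep, 0.031 and 0.034 for Cebpb, -0.10 in both for Kit, and 1.04 in both for Hba-a2 and Hba-a1. With low title numbers alone it was -0.058 for Col6a3, 0.079 for Rgcc, -0.094 for Kit, 0.83 for Hba-a2 and 0.84 for Hba-a1. The globin genes were at 0.35 with the replicate block, and with 1 library left out they ran from -1.14 (Hba-a2) and -1.15 (Hba-a1) without mutant 2 to 0.040 and 0.050 without control 3. The cause was not tested.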

Other observations

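Genes of insulin and insulin-like growth factor signalling, which support follicle growth, gave 0 called of 14 tested (median log2 fold change 0.09). Igf1r, the receptor gene, was at 289 and 219 CPM in the mutants, 207 in control 1 and 123 to 145 in controls 2 to 5. Insr, the insulin receptor gene, was at 116 and 102 CPM against 103 in control 1 and 52.3 to 60.9 in the others. Irs1, an adaptor of both receptors, was at 64.4 and 56.0 CPM against 45.2 in control 1 and 7.28 to 20.8 in the others. For all 3 control 1 lay nearer to the mutants than to controls 2 to 5, and in libraries with low title numbers their log2 fold changes were 0.30, 0.08 and 0.41. Igfbp6, a binding protein gene, was at 31.1 and 35.9 CPM against 40.8 in control 1 and 72.2 to 86.1 in the others.

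Interferon response genes gave 0 called of 15 tested (median 0.36), and 13 had positive fold changes, beside 9869 of all 20570 genes. Both mutants lay above all controls for 3 of the 15 (Usp18, Irgm1 and Zbp1), beside 14.1% of all genes. They lay below all controls for 1, beside 14.3% of all genes. At an unadjusted p under 0.05, 1 had a positive and 1 a negative fold change, beside 8.06% and 9.26% of all genes. Ifi44, an interferon-induced gene, was at 7.11 and 4.52 CPM against 4.05 in control 1 and 1.92 to 4.61 in the others, and its log2 fold change was 0.92 with an SE of 0.370 (edgeR adjusted p = 0.263). Gbp2, an interferon-induced GTPase gene, was at 16.6 and 20.6 CPM against 60.0 in control 1 and 34 to 98.8 in the others, below all controls (log2 fold change -1.74, SE 0.416, edgeR adjusted p = 0.243). Immediate early genes gave 0 called of 14 (median 0.45) and circadian clock genes 0 of 18 (median 0.13). Dbp, an output gene of the clock, was at 7.65 and 26 CPM in the mutants, which straddled control 1 at 22.7.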
